A study of Mus musculus with 8 samples.

Results

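Of the 24860 genes listed for mouse eggs in 8 libraries, 99 stood far above all other libraries in a single wild-type library, WT replicate 1. They were chosen by their measured values: at least 1 FPKM in WT replicate 1 and more than 8 times the highest value of the other 7 libraries. FPKM is the number of sequenced fragments scaled to transcript length and library size, so that values can be compared between genes. The choice used the level in all 8 libraries, and these levels are therefore given as a description, without a test. The eggs were mature oocytes (MII, held at the second meiotic metaphase), taken from C57BL/6 females of 6 weeks (postnatal day 42), either wild type (WT) or of the genotype Esrp1-/- (Esrp1_KO). ESRP1 is an RNA-binding protein that regulates splicing in epithelial cells. No source used here gives the allele or how it was made. Each genotype had 4 libraries, called biological replicates by the submitters, and each was made by Smart-seq2 from a tube of 15 lysed oocytes. Whether a tube held the eggs of a single female is not stated.

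As background, the mouse egg makes no RNA at this stage and lives on stored transcripts until the embryo starts its own transcription. The major wave of that activation comes at the 2-cell stage, with short-lived transcripts of the Zscan4, Tdpoz and Usp17 families and of Dux. A following group of genes, with Obox6, the Trim43 genes, Pramel6, Pramel7 and Alppl2 among them, is known from the 4-cell stage to the morula. The blastocyst then forms an outer trophectoderm, marked by Cdx2, Eomes and keratins, and an inner cell mass, marked by Nanog and Sox2.

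For 4 of the best known cleavage-stage members that had an entry in the RefSeq promoter table (GRCm38.p6), the 120 bases just before the annotated start of transcription are shown, because these genes are high together in the same library. They read 5′ to 3′ on the strand of the gene: chr9:88580771-88580890 on the plus strand for Trim43a, chr1:87089929-87090048 on the minus strand for Alppl2, chr2:87492419-87492538 on the minus strand for Pramel7 and chr2:87506445-87506564 on the plus strand for Pramel6. The RefSeq start of Pramel7 lies inside the GENCODE M21 span of the gene, downstream of the M21 start. Capitals mark letters that match a motif searched on both strands.
Trim43a: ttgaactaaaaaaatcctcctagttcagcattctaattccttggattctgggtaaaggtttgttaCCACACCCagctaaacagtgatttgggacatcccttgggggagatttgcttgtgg
Alppl2: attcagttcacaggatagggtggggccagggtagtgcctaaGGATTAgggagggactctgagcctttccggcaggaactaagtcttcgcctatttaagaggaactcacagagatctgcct
Pramel7: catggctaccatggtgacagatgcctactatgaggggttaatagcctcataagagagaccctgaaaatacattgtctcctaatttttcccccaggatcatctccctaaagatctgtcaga
Pramel6: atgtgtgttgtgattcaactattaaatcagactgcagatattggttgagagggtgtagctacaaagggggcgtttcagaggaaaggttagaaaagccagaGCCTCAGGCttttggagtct
The capitals in Trim43a are the reverse complement of GGGNGTGG, letters of the type that KLF proteins bind, 55 bases before the start. In Alppl2 they are GGATTA, the letters typical of OTX and OBOX homeodomains, 79 bases before the start. In Pramel6 they are GCCNNNGGC, the TFAP2 type, 20 bases before the start, and the stretch of Pramel7 held none of the letters searched.

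These matches are a description of letters, not of bound sites. A promoter of 300 bases (250 before and 50 after the start) was found for 55 of the 99 members. GGATTA stood on either strand in 9 of these 55 (16.4%), against 8.14% of 27025 genes with a promoter. The TFAP2 letters stood in 27.3% of the members against 18.5% of all genes, and the KLF letters in 30.9% against 19.7%. The TEAD letters (GGAATG) stood in 18.2% against 16.6%, and the NR5A letters (CAAGGNCA) in 9.09% against 7.64%. The TATA box letters (TATAAA) were in 10.9% of members against 15.7% of all genes, and the GATA letters (AGATAA) in 9.09% against 12.7%. No member promoter held the DUX type motif, which was present in 0.244% of all genes. The motif windows of different motifs can overlap, members can share ancestry, and no test was made of these shares. Obox6, Trim43b, Trim43c and Dppa4 had no entry in this table.

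The 3 Trim43 genes and Obox6 led the set. Trim43a, a gene of the TRIM family of RING-finger ubiquitin ligases (ENSMUSG00000090693, GRCm38 chromosome 9, 88580891 to 88588819, plus strand), had 47.7 FPKM in WT replicate 1, from 2494 reads, and 0 in each of the other 7 libraries. Against the level that 3 reads would give in a library with none, this is at least 785-fold higher. Trim43b (chromosome 9, 89084624 to 89092835, minus strand) had 37.0 FPKM in WT replicate 1, 0.0157 in WT replicate 3 and 0 in the remaining 6. Trim43c (chromosome 9, 88839164 to 88848190, plus strand) had 4.38 FPKM, with 0, 0.0535 and 0.0347 in WT replicates 2 to 4 and 0.140, 0.0403, 0.0526 and 0.124 in Esrp1_KO. All 3 genes were thus high in WT replicate 1 and at or near 0 elsewhere in both genotypes. They are near copies: 45.9%, 47.7% and 58.6% of the 50-base stretches of Trim43a, Trim43b and Trim43c also occur in transcripts of other genes. How reads that match several places were counted is not stated, so the division of reads among the 3 is uncertain. Their relatives of the egg behaved differently. Trim61, Trim60 and Trim75, with 3793, 103 and 198 FPKM in WT replicate 1, lay within or next to the range of the other WT libraries (3520 to 3992, 85.4 to 118 and 144 to 197).

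Obox6 (ENSMUSG00000041583, chromosome 7, 15833241 to 15839678, minus strand) encodes a homeodomain protein of the oocyte-specific homeobox family. It had 40.3 FPKM in WT replicate 1, from 1428 reads. The other WT libraries had 0.238, 0.0264 and 0.231 FPKM, and the Esrp1_KO libraries 0.230, 0, 0.260 and 0.421. The level in WT replicate 1 was 95.7 times the highest of these, and the remaining libraries of both genotypes overlapped. Crxos, a homeobox gene 42939 bases away, had 1.82 FPKM in WT replicate 1, 0.0718 in Esrp1_KO replicate 4 and 0 in the other 6. The maternal members of the family were present in all eggs: Obox5 had 1854 FPKM in WT replicate 1 and 1796 to 2869 elsewhere, and Obox1, Obox2 and Obox7 also lay within the range of the other libraries. Obox3, known from the 2-cell embryo but counted below on the list of the 4-cell to morula stages, had 0.0119 FPKM in WT replicate 1 and up to 0.173 elsewhere. Of the 8 family genes measured, 2 were members, and Obox8 missed the rule with 1.27 FPKM against a highest other value of 0.303.

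Pramel7 and Pramel6, leucine-rich-repeat proteins of the PRAME family known from the morula and inner cell mass, lie 9472 bases apart on chromosome 2. Pramel7 (87489087 to 87497093, minus strand) had 21.1 FPKM in WT replicate 1, from 1190 reads. It was at 0 in 4 of the other 7 libraries, with 0.0666 in WT replicate 3 and 0.0818 and 0.0166 in Esrp1_KO replicates 3 and 4. Pramel6 (87506565 to 87510872, plus strand) had 4.88 FPKM and was at 0 in all other 7 libraries, at least 84.4-fold below when 3 reads per library are allowed for. That both lay well above the other eggs follows from the rule. At 0 to 5 reads in each of the other libraries, a difference by genotype was not detectable. Pramel5 came next in the family with 0.676 FPKM against a highest other value of 0.108. Pramef8, Pramef12 and Pramef17, genes of the same family that the egg stores, lay inside the range of the other 7 libraries (13.9, 16.5 and 4.2 FPKM in WT replicate 1), and Pramef20, with 21.4 FPKM, was 1.15 times the highest of them.

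**Figure D1:**
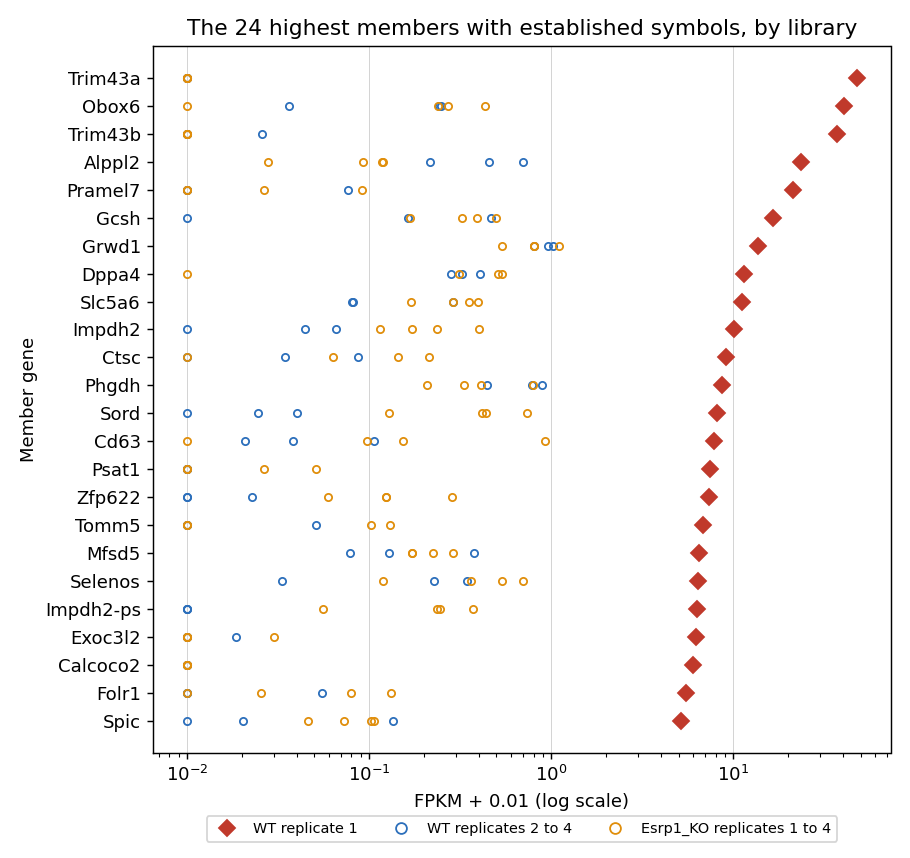
FPKM + 0.01 on a log axis for the 24 members with the highest level in WT replicate 1 among those with an established symbol. Each row is a gene, the diamond is WT replicate 1, blue circles are the other 3 WT libraries and orange circles the 4 Esrp1_KO libraries; points at 0.01 are listed at 0. Every diamond lies to the right of all circles of its row, as the choice requires, and in most rows the circles of the genotypes overlap. The blue circles lie above the orange ones for Alppl2 and below them for Sord, Impdh2, Zfp622 and Impdh2-ps. All these circles are below 1 FPKM, and Impdh2-ps shares 89.4% of its 50-base stretches with Impdh2, so the pair is not separate cases. The share of all genes that separate in this way was not counted, so these rows are not read as a result about the members.

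Alppl2, the alkaline phosphatase of the early embryo (ENSMUSG00000026246, chromosome 1, 87086694 to 87089928, minus strand), had 23.6 FPKM in WT replicate 1, from 1405 reads. The other WT libraries had 0.691, 0.205 and 0.444 FPKM and the Esrp1_KO libraries 0.0822, 0.0178, 0.108 and 0.110. Its 3 remaining WT libraries all lay above the 4 Esrp1_KO libraries, and this was seen after the values were examined. The share of all genes that separate in this way was not counted. Without WT replicate 1, 30.9% of 7914 genes were called in the genotype comparison, so this separation is not read as a trait of Alppl2. Alpl, the tissue-nonspecific phosphatase, had 1.11 FPKM in WT replicate 1 and 0.0199 to 0.661 elsewhere. Dppa4, a chromatin protein that acts with Dppa2 to open genes of the 2-cell stage, had 11.4 FPKM in WT replicate 1, 0.313, 0.394 and 0.270 in WT replicates 2 to 4, and 0, 0.523, 0.50 and 0.30 in Esrp1_KO. Its partner Dppa2 was present in all eggs, with 70.5 FPKM in WT replicate 1 and 42.6 to 57.2 elsewhere. Of the 50-base stretches of Dppa4, 31.3% also occur in other genes. Klf5, a zinc-finger factor needed in the blastocyst, had 1.96 FPKM in WT replicate 1, 0.0402 in WT replicate 4, 0.0411 in Esrp1_KO replicate 4 and 0 in the other 5.

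Of the stage lists, that of the 4-cell to morula stages held the most members. Of its 26 genes measured, 9 were members: Trim43a, Obox6, Trim43b, Alppl2, Pramel7, Dppa4, Pramel6, Trim43c and Klf5. Together they summed to 192 FPKM in WT replicate 1 and to between 0.452 and 1.24 FPKM in the other 7 libraries, a contrast that the rule fixes. These 9 were 9.09% of the members and carried 33.0% of the summed FPKM of the set. A further gene of the list, Tead4, a factor of the trophectoderm lineage, missed only the floor of the rule, with 0.917 FPKM from 87 reads against a highest other value of 0.0295. Sox21, a regulator of cell allocation in the 4-cell embryo, had 0.0798 FPKM from 8 reads and 0 in all other libraries. In all, 11 of the 26 were below 1 FPKM in all 8 libraries, with Tead4, Sox21 and Obox3 among them. Other genes of the list were egg transcripts in these data. Klf17 (452 FPKM in WT replicate 1), Sall4 (306), Tfap2c (20.2) and Nr5a2 (1.18) were also present in all other WT libraries, and of these Klf17 and Tfap2c were highest in WT replicate 1, 1.06 and 1.24 times the highest other library. The list was drawn up with earlier results of these data known, so its count of members is not independent evidence of a stage. Pramel6, Pramel7 and Klf5 are also known from the inner cell mass or the blastocyst, as given above.

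Of 37 genes measured from a list of transcripts that burst at the 2-cell stage, 1 was a member. A further 7 were over 4 times the highest other library. Of these, 4 count only because all others are at 0 (Spz1 with 12 reads, and Gm8300, Tdpoz3 and Gm5662 with 1 or 2). In all, 16 of the 37 were highest in WT replicate 1, against 14.2% of 9955 genes of at least 1 FPKM in some library. That share does not carry over directly, since 28 of the 37 were below 1 FPKM in all 8 libraries. No share was counted over genes that low. The member was Tdpoz2, a BTB-domain gene, with 1.03 FPKM from 31 reads in WT replicate 1 and 0 in the other 7 libraries. It shares 48.3% of its stretches with other genes, most with Gm5773, itself a member at 1.49 FPKM from 45 reads. Gm5773 in turn shares most with the pseudogene Gm9141, a member at 1.73 FPKM from 46 reads. Both were at 0 in the other 7 libraries and were not on the list, so the count of 1 depends on which genes were listed. The relatives Tdpoz4 and Tdpoz5 had 0.852 and 0.704 FPKM from 25 and 19 reads, against highest other values of 0.0361 and 0.104. Of the stretches of Tdpoz5, 100% occur in other genes. B020004J07Rik had 0.556 FPKM against 0.0609. The best known genes of the burst were at low levels near those of the other libraries. Zscan4d, a telomere regulator of the 2-cell embryo, had 1.08 FPKM in WT replicate 1, and WT replicate 2 was higher with 1.44. Zscan4c had 0.250 FPKM in WT replicate 1 and 0.0607 to 0.435 elsewhere. Duxf3, the factor that opens the program, had 3 reads in WT replicate 1 (0.0422 FPKM) and up to 0.0262 FPKM elsewhere, and Zfp352 and Usp17lc had 6 reads each. Tcstv1 and Tcstv3 were stored in all eggs at 22.4 and 7.25 FPKM in WT replicate 1 and 18.1 to 36.4 and 5.55 to 20.9 elsewhere. The summed level of the list was 108 FPKM in WT replicate 1, inside the range of the other libraries (94.7 to 129).

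**Figure D2:**
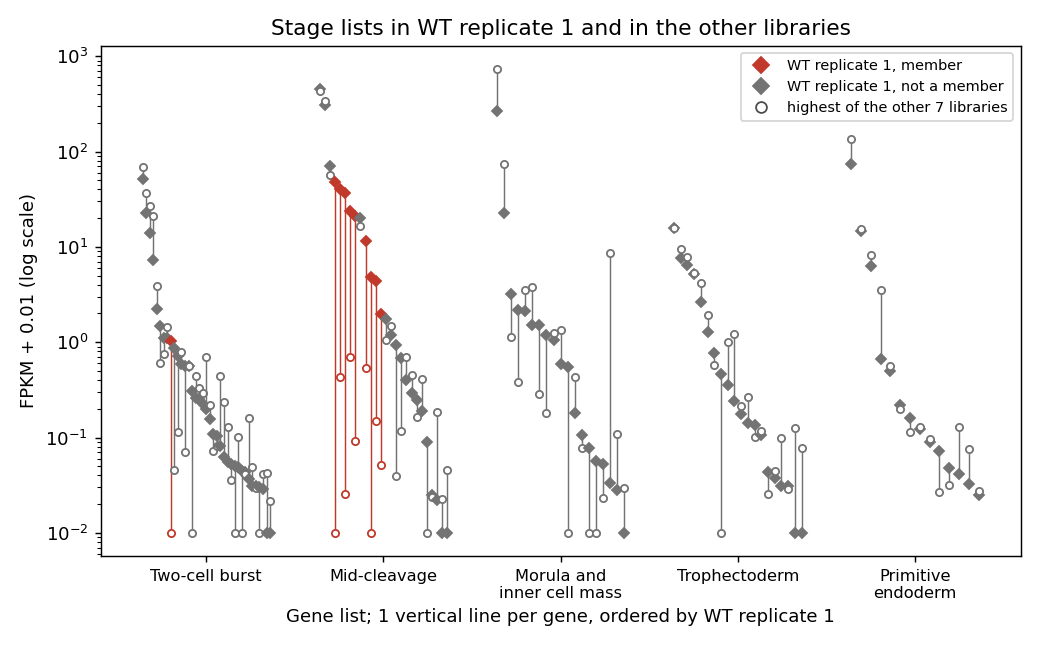
Genes of 5 stage lists, with 1 vertical line per gene on a log axis of FPKM + 0.01, ordered within a list by WT replicate 1. Diamonds are WT replicate 1 (red for members) and open circles the highest of the other 7 libraries; red lines are 9 genes of the mid-cleavage list and 1 of the 2-cell list, and the later lists hold none.

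Genes of the morula, inner cell mass and pluripotency gave no member among 19 measured. But 6 were over 4 times the highest other library, with Nanog and Gdf3 among them on 4 and 3 reads against 0 elsewhere. Of all 8444 genes at 1 FPKM or more in WT replicate 1, 164 were over 4 times. For genes below that level no share was counted. Klf2, a factor of naive pluripotency, had 2.18 FPKM in WT replicate 1 and 0 to 0.368 elsewhere. Zfp42 (Rex1) had 1.51 against at most 0.276, and Utf1 had 1.17 FPKM against at most 0.173. Fgf4, the growth factor by which the inner cell mass signals, had 0.534 FPKM from 45 reads and 0 in all other libraries. The defining markers of the inner cell mass were near 0: Nanog had 4 reads (0.0676 FPKM, 0 elsewhere) and Sox2 had 1 read, while up to 0.0976 FPKM of Sox2 was seen elsewhere. Esrrb, at 0.583 FPKM, lay within the range of the others (0.503 to 1.33). Pou5f1, Dppa3 and Dppa5a, which eggs store, also lay within it, and Sox15 had 3.21 FPKM against at most 1.11.

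Trophectoderm and primitive endoderm genes also gave no member, among 20 and 14 measured. Cdx2, the factor that defines the trophectoderm, had 2 reads in WT replicate 1 and Eomes had 3, and the keratins Krt8 and Krt18 were listed at 0. Hand1, a factor of trophoblast, had 0.456 FPKM from 24 reads and 0 in all other libraries. Gata3, Dppa1, Fgfr2 and Cldn4 were the highest genes of the trophectoderm list, with 15.8, 7.65, 6.46 and 5.16 FPKM. Gata3 was 1.001 times the highest other library and the other three were within the range of the rest. The primitive endoderm genes Lamb1, Dab2, Gata4 and Apoe (73.5, 14.7, 6.26 and 0.656 FPKM) were no higher than the highest other library. Sox17 and Pdgfra had 4 reads each in WT replicate 1, with 0.0318 and 0.0151 FPKM, below the highest other values of 0.118 and 0.0177. At these read numbers a difference was not detectable.

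Most members are not stage markers. By annotation, 72 of the 99 were protein-coding, 17 were pseudogenes, 4 lincRNAs and 6 other non-coding genes, and 11 stood on any of the lists drawn up at the start. Levels in WT replicate 1 ran from 1.003 to 47.7 FPKM with a median of 2.92, with 14 members at 10 FPKM or more and 33 between 1 and 2. In the other libraries 27 members were at 0 in all 7, and the highest value of any member there was 1.10 FPKM, of Grwd1 in Esrp1_KO replicate 1. For the 72 members seen elsewhere, the median ratio to the highest other library was 19.7. Reads could be worked out for 89 members, from 3 to 2494 with a median of 187, and 9 rested on under 30 reads.

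Enzymes that make serine and break down glycine were among the highest of these. Gcsh, the lipoyl carrier of the glycine cleavage system, had 16.4 FPKM in WT replicate 1, 0.456, 0 and 0.153 in WT replicates 2 to 4 and 0.313, 0.381, 0.486 and 0.157 in Esrp1_KO. Psat1, the aminotransferase of serine synthesis, had 7.38 FPKM from 828 reads, 0.0410 and 0.0166 in Esrp1_KO replicates 3 and 4 and 0 in the other 5. Phgdh, which catalyses the first step of serine synthesis, had 8.69 FPKM against 0.199 to 0.884 elsewhere, and 47.8% of its 50-base stretches occur in other genes. Gldc, the decarboxylase of glycine cleavage, had 4.34 FPKM against 0.0749 to 0.346. Of 9 genes of these paths, listed after the values were seen, these 4 were members. Psph, which ends serine synthesis, had 0.490 FPKM, inside the range of the others, and Amt of the glycine system had 3 reads. Shmt2 and Dld, with 18.4 and 48.4 FPKM, were egg transcripts at levels inside the range of the other libraries.

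A second metabolic group supplies guanine nucleotides. Impdh2, the enzyme that commits purines to guanine, had 10.02 FPKM in WT replicate 1, 0, 0.0346 and 0.0562 in WT replicates 2 to 4 and 0.392, 0.104, 0.227 and 0.161 in Esrp1_KO. It shares 39.3% of its stretches with other genes, most with its processed copy Impdh2-ps, itself a member at 6.33 FPKM. Impdh1 had 1.35 FPKM against at most 0.0751. The 2 were the members among 11 purine genes listed after the values were seen, and Ppat, the first enzyme of the path, missed the rule with 2.92 FPKM and a ratio of 6.90. Adss, Gmps and Atic were within the range of the other libraries, and Paics, with 20.04 FPKM, was 1.005 times the highest of them.

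Members of the nucleolus and of ribosome assembly numbered 7 of 30 genes in a list written after the values were seen. Grwd1, a chaperone of a ribosomal protein of the large subunit, had 13.5 FPKM in WT replicate 1, 0.952, 0.794 and 1.01 in WT replicates 2 to 4 and 1.10, 0.527, 0.797 and 0.791 in Esrp1_KO. Zfp622, a late assembly factor of the large subunit, had 7.33 FPKM against at most 0.276. Nop53, Ccdc137, Nop16, Isg20l2 and Riox1 had between 1.02 and 3.28 FPKM. A further 5 genes of the list, Nop2, Rrp9, Wdr18, Rpl7l1 and Nol11, were 4.33 to 7.75 times the highest other library and so fell short of the rule. The abundant nucleolar proteins of the egg did not stand out: Npm1, Ncl, Dkc1 and Nop56 were within the range of the other libraries.

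Some members are known for the uptake or use of vitamins. They were picked from the set after the values were seen, and no wider list of such genes was counted. Slc5a6, the carrier of biotin and pantothenate, had 11.2 FPKM in WT replicate 1 and 0.0701 to 0.387 elsewhere. Vnn1, which frees pantothenate, had 5.01 FPKM and was at 0 in the other 7, at least 100.4-fold below when 3 reads per library are allowed for. Folr1, a folate receptor, had 5.48 FPKM against at most 0.122, Pdxk, the vitamin B6 kinase, 4.47 against 0.0388, and Ppcs of coenzyme A synthesis 1.91 against 0.0750. For Pdxk, 39.7% of the stretches occur in other genes and 39.0% of its exons overlap them. Ctsc, a lysosomal protease, had 9.10 FPKM against at most 0.204, and Cd63, a membrane protein of late endosomes, had 7.82 in WT replicate 1 and 0.910 in Esrp1_KO replicate 3, close to the limit of the rule.

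Other members of high level have assorted known roles. Sord, sorbitol dehydrogenase, had 8.11 FPKM in WT replicate 1 and 0 to 0.723 elsewhere, with 3 of the Esrp1_KO libraries between 0.406 and 0.723 and the other WT libraries at or below 0.0302. Tomm5, of the mitochondrial import pore, had 6.77 FPKM, Mfsd5, a carrier-like membrane protein, 6.49, Selenos, a selenoprotein of the endoplasmic reticulum, 6.39, and Exoc3l2 6.22. Calcoco2, an autophagy receptor, had 5.99 FPKM from 256 reads and 0 in all other libraries. Among regulators, Spic, an Ets-family factor, had 5.16 FPKM against at most 0.126, Btbd18, known as a factor of piRNA gene transcription, 4.01 against 0, and Socs3, the inhibitor of STAT3 signalling, 3.32 against 0.171. Spic, Btbd18 and Socs3 were picked after their values were seen.

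The members were spread over 20 chromosomes, most on chromosomes 11 (14) and 7 (12), with a single member on X. Within 100 kb of another member lay 11 of them, such as Pramel6 with Pramel7 and Obox6 with Crxos and Nop53. Much of the set has near copies elsewhere. In 33 members over 20% of the 50-base stretches occur in other genes, among them 16 protein-coding members and 14 of the 17 pseudogenes. The exons of 6 members overlap other genes by over 20%. Smart-seq2 does not mark strand, so reads of overlapping genes cannot be told apart. Without the members that share over 20% of their stretches, 66 remained.

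Just inside the rule were 1810019D21Rik, Cd63, Isg20l2 and Slc39a4, at 8.09 to 8.74 times the highest other library. Just outside were Rps2-ps13, Wdr18, Tor1b, Rrp9 and Ppat, at 7.84 to 6.90 times. There was no gap at the limit: of the 8444 genes at 1 FPKM or more in WT replicate 1, 65 had a ratio over 4 and up to 8, 110 over 2 and up to 4, and 1139 over 1 and up to 2. The members are thus the upper end of a wider tail.

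**Figure D3:**
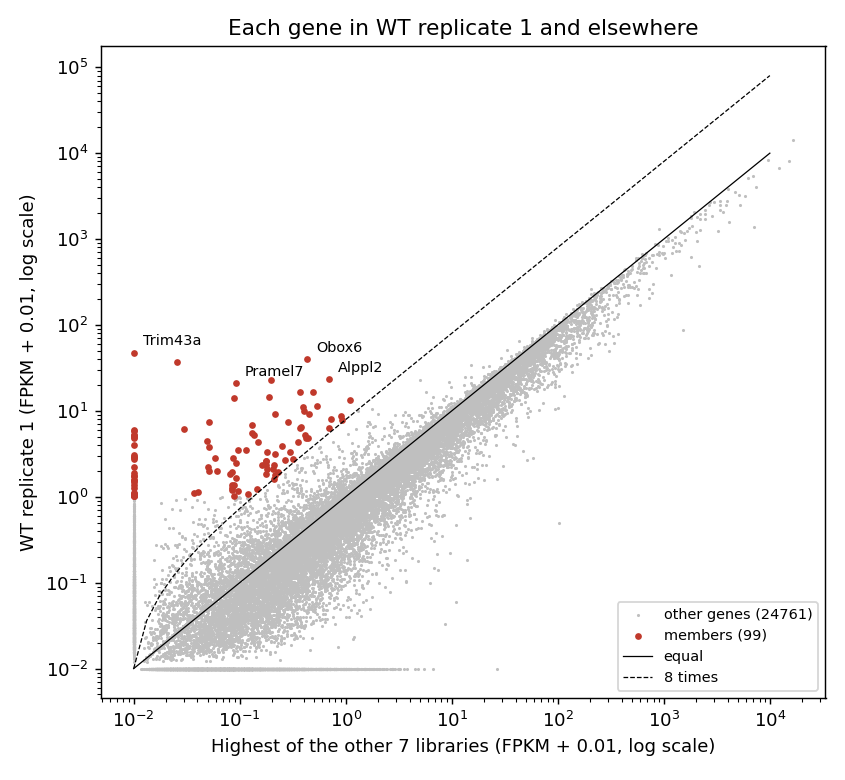
FPKM + 0.01 in WT replicate 1 (vertical, log axis) against the highest of the other 7 libraries (horizontal, log axis) for 24860 genes. Red points are the 99 members, the solid line marks equal levels and the dashed line 8 times; members lie above the dashed line at horizontal values up to 1.10 FPKM, and the abundant genes lie near or below the solid line.

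The same rule, turned on each library in place of WT replicate 1, gave 23, 2 and 4 genes in WT replicates 2 to 4 and 5, 5, 7 and 4 in Esrp1_KO replicates 1 to 4. Protein-coding genes were 72 of the 99 in WT replicate 1 and 3 of the 23 in WT replicate 2. The 99 members summed to 583 FPKM in WT replicate 1, which is 0.183% of the summed FPKM of that library. In the other WT libraries they summed to 7.71, 6.58 and 6.39 FPKM and in Esrp1_KO to 8.52, 5.91, 8.83 and 6.41. Outside WT replicate 1 the genotypes therefore overlapped. Reads on the members were 31130 in WT replicate 1 and 303 to 623 in the other libraries. The sum of WT replicate 1 was used to choose the set and is no finding. In bulk samples such as these, few cells with much of a transcript and many with little of it cannot be told apart.

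**Figure D4:**
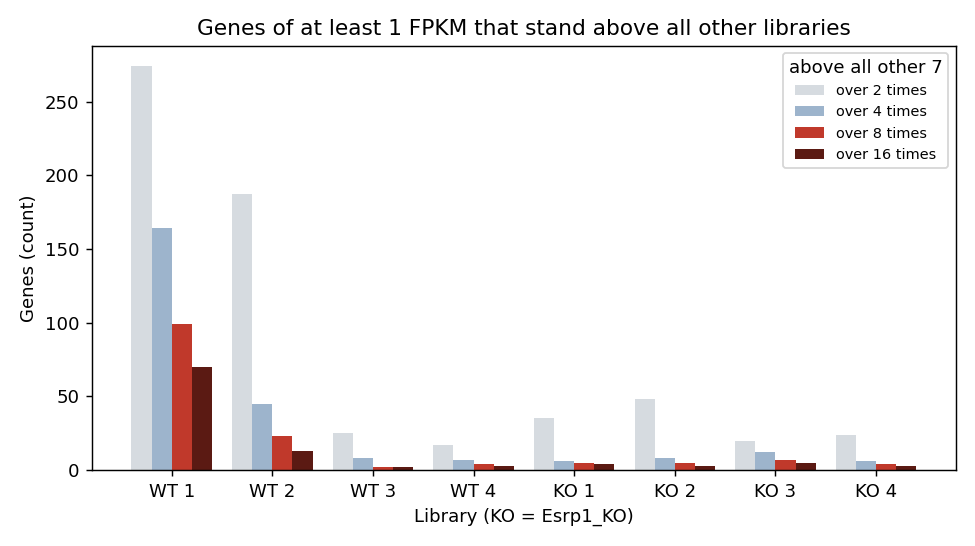
Number of genes (vertical) of at least 1 FPKM in the library named on the horizontal axis that were over 2, 4, 8 or 16 times above all other 7 libraries. WT replicate 1 has 99 genes over 8 times, WT replicate 2 has 23, and the remaining 6 libraries have 2 to 7.

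WT replicate 1 also differed in how many genes were seen. The total reads implied by the deposited values were 26375545 for it and 24910433 to 32337966 for the others, so its depth was inside their range. Yet 20047 genes (80.6%) were above 0 in it, against 15201 to 18100 in the other 7 libraries. Of these, 1384 were above 0 there alone, with a median of 0.0424 FPKM, whereas 175 to 555 were above 0 in a single other library. Its log2(FPKM + 1) correlated with the other WT libraries at r = 0.961 to 0.975 across genes, which are not independent replicates, and the other WT libraries with each other at 0.965 to 0.979. Of 31 genes of oocyte identity measured none was highest in WT replicate 1, against 14.2% of 9955 genes of at least 1 FPKM in some library. None was a member, which says little, since 29 of them had a median of at least 1 FPKM in the other 7 libraries. H1foo, Btg4, Rfpl4 and Oosp1 led with 8099, 5077, 4035 and 3135 FPKM, and the median ratio to the mean of the other WT libraries was 1.03 over 29 genes of this list, against 1.01 over 4295 genes of all kinds.

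Genes of the Y chromosome, which eggs do not carry, were read in WT replicate 1. All 8 on the list were above 0, with 83 reads in all, and the other 7 libraries had 1 or 2 reads each. Ddx3y, an RNA helicase, had 31 reads (0.226 FPKM) and 0 in every other library. Eif2s3y, a translation factor, had 21 reads and 0, 1 or 2 elsewhere, and Usp9y had 14 reads and 0 elsewhere. None reached 1 FPKM, so none could be a member. Uty, Zfy2 and Kdm5d had 5, 4 and 4 reads, and Zfy1 and Uba1y had 2 each. Xist, the RNA of the inactive X, had 2 reads in WT replicate 1, below its highest other library. The Y-linked and Xist list summed to 0.611 FPKM in WT replicate 1, to 0.00456 to 0.0122 in the other WT libraries and to 0.00204 to 0.0257 in Esrp1_KO. Over all 13 genes listed on the Y chromosome the sum of 5.53 FPKM was not apart from the others (2.42 to 5.67), since the pseudogene Gm20775, with 3.42 FPKM, was read in all libraries. The part of these transcripts in the levels of the set was not tested.

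**Figure D5:**
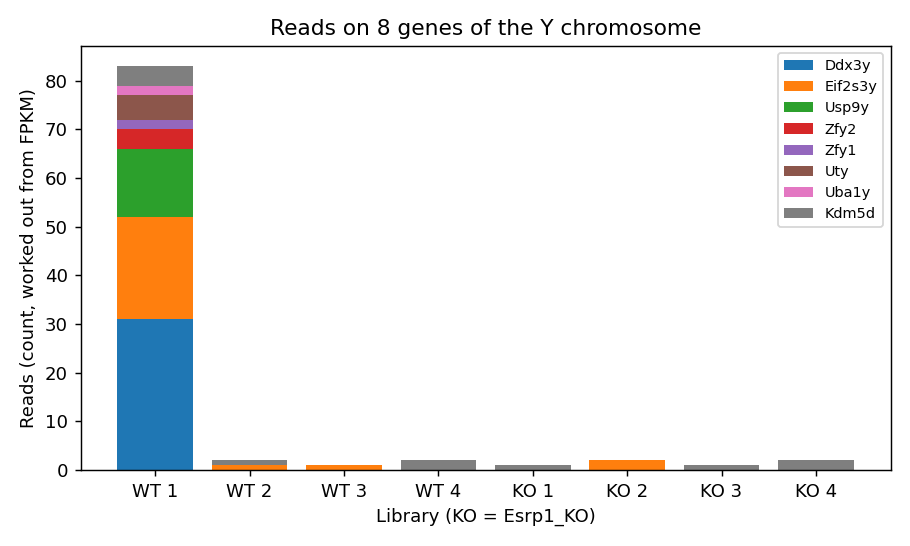
Reads per library (vertical, count worked out from FPKM) on 8 genes of the Y chromosome, stacked by gene. The bar of WT replicate 1 reaches 83 reads, and those of the other 7 libraries 1 or 2.

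Imprinted genes that the paternal genome expresses held no member among 22 measured. But 8 of the 22 were highest in WT replicate 1, against 14.2% of 9955 genes of at least 1 FPKM in some library. That share does not carry over directly, since 15 of the 22 were below 1 FPKM in all 8 libraries. Only 2 were over 4 times the highest other library, and for these all other libraries were at 0. They summed to 46.9 FPKM in WT replicate 1, to 39.4 to 41.2 in the other WT libraries and to 40.9 to 53.5 in Esrp1_KO. Mest, Xlr3b, Snrpn and Impact led the list with 23.5, 7.57, 4.83 and 4.02 FPKM. Snrpn was 1.08 times the highest other library, and Mest and Xlr3b were within the range of the others. Impact was above the other WT libraries (1.09 to 1.97 FPKM) and below Esrp1_KO (5.77 to 9.39).

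Markers of other cells that an egg collection could hold gave no member on any of their lists. Of 16 cumulus and granulosa genes, 1 was highest in WT replicate 1, and the list summed to 13.97 FPKM there, 10.9 to 13.7 in the other WT libraries and 8.33 to 11.3 in Esrp1_KO. Gata4, Cyp19a1, Amhr2 and Hsd3b1 led it with 6.26, 6.14, 0.720 and 0.572 FPKM, while Ptx3, Foxl2, Fshr and Nr5a1 were at 0 in WT replicate 1. Amhr2, the receptor of anti-Müllerian hormone, was the exception, at 17.9 times its highest other library. The 8 sperm genes, with Odf2, Ldhc, Prm2 and Spaca1 in the lead, summed to 10.99 FPKM, inside the range of the other WT libraries (10.4 to 11.5) and of Esrp1_KO (10.4 to 14.99), and the protamine Prm2 had 8 reads. Of these 8 genes, 1 was highest in WT replicate 1 and at 0 in all other libraries. The 11 blood and immune genes summed to 2.08 FPKM, 1.26 to 2.16 in the other WT libraries and 2.01 to 11.9 in Esrp1_KO. Cd68, H2-Aa, Hba-a1 and Hbb-bs led this list, Ptprc and Lyz2 were at 0, and the globins Hba-a1, Hbb-bs and Hbb-bt had 5, 2 and 1 reads and 0 elsewhere. The 9 fibroblast genes, led by Dcn, Postn, Fn1 and Thy1, summed to 1.79 FPKM, 0.821 to 1.65 in the other WT libraries and 2.10 to 3.11 in Esrp1_KO. Of these 9 genes, 1 was highest in WT replicate 1 and at 0 in all other libraries. The 8 genes of oviduct epithelium summed to 25.7 FPKM, 21.5 to 25.7 in the other WT libraries and 19.3 to 25.4 in Esrp1_KO. Cdh1, at 21.8 FPKM, was within the range, whereas Epcam (2.64) and Esrp2 (0.734) were 4.97 and 4.56 times the highest other library, Upk3b had 0.451, Ovgp1 0.0426, and Krt8 and Krt18 were at 0. The part of these cells in the levels of the set was not tested.

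The set entered the genotype comparison through a single WT library. In the limma fit of log2(FPKM + 1) over all 8 libraries, 2961 of 8021 tested genes passed an adjusted p of 0.05 (36.9%), 1850 of them lower in Esrp1_KO (23.1%). Of the 99 members, 20 had the mean of 1 FPKM needed to enter, all through WT replicate 1, and 0 were called. None of the 20 had an unadjusted p below 0.05. For these genes the single library that chose them sets both the difference and its error, so the count of 0 is no result about the members. On this scale all 20 were lower in Esrp1_KO, with a median log2 difference of -0.86 against -0.06 over all genes tested, which follows from the high value in WT replicate 1. On the scale of voom, 16 of 19 were lower, and Sord, Impdh2 and Selenos were higher in Esrp1_KO. Without WT replicate 1, no member had a mean of 1 FPKM, so 0 of the 99 could be tested, and 2449 of 7914 genes were called (30.9%). Of the 2961 calls with the library, 2366 were also made without it, 595 only with it and 83 only without it. Other genes, not the set, thus made up the calls that changed. Leaving out any other library in turn gave 2383 to 2866 calls. Esrp1, the targeted gene, had 17.1, 17.2, 19.5 and 16.2 FPKM in WT replicates 1 to 4 and 3.62, 3.43, 2.31 and 3.83 in Esrp1_KO, so WT replicate 1 matched its label at this gene. The log2 difference was -2.12 ± 0.15 (SE, n = 4 each, limma adjusted p = 1.32e-05) and -2.13 without WT replicate 1.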

How the data were processed

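Poly(A)-primed Smart-seq2 libraries of MII oocytes, 4 per genotype, were deposited by the authors as FPKM per Ensembl gene, per the file headers. The build was GRCm38, per the submitters' processing notes. Which aligner, counter and annotation were used is not given in the sources used here. Symbols, coordinates and exon lengths came from GENCODE M21 (24812 of 24860 genes had a symbol). FPKM multiplied by exon length fell on whole reads within 0.02 of a read for about 90.0 to 90.6% of values, which gave reads for 22629 genes and the implied library totals. Reads are not independent molecules, so the error of a read number is not given by counting alone.

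The members and gene lists were chosen with earlier results of these data known. The lists for serine and glycine, purines, and nucleolus and ribosome assembly, were written after the values were seen. Genes were named by rule: the 4 markers Obox6, Pramel7, Alppl2 and Trim43a, members on lists, the 20 highest members with established symbols, 5 genes on each side of the limit, up to 4 leading genes of lists without members, and Esrp1. Other genes were named after their values were seen, and 1 gene that the rule picks is not reported here. Sequence sharing is the share of 50-base stretches of a gene that also occur in M21 transcripts of another gene.

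The genotype test took genes whose mean reached 1 FPKM, on log2(FPKM + 1), a scale that understates changes of low genes, with limma 3.58.1 in R 4.3.3 (intensity trend, two-sided, Benjamini-Hochberg over all genes tested, threshold 0.05). P-values rest on the spread from tube to tube. The steps were tested on simulated data. Same-numbered libraries, by the numbers in the labels, deviated together (correlations of 0.226 to 0.317 in all 4 pairs). Some unlike numbers correlated as highly, up to 0.402 for WT replicate 4 with Esrp1_KO replicate 1. The labels name no pairs, and the main counts and the Esrp1 values come from the fit with genotype alone. Because every same-numbered pair exceeded 0.1, a fit with the replicate as a block was run as an alternative. Other alternatives were the limits of the rule, left-out libraries, the pseudocount, filters, TMM scaling and voom on the reads. Promoters came from RefSeq on GRCm38.p6.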

Additional observations from a re-analysis of the deposited data

Results flagged for a closer look

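Among 54 measures examined in groups of 4 libraries, 4 had a single library farther from the rest than Dixon's 95% critical value allows, where chance gives about 1 in 20. The summed FPKM of the set was 582.74 in WT replicate 1 against 6.39 to 7.71 in the other WT libraries, which the choice of the members fixes. The summed Y-linked and Xist genes stood at 0.611 FPKM in WT replicate 1 against 0.00456 to 0.0122. The alkaline phosphatases Alppl2 and Alpl summed to 24.7 FPKM in WT replicate 1 against 0.865 to 1.05, nearly all of it from the member Alppl2, so this too was fixed by the choice of the members and is no separate sign. In Esrp1_KO replicate 3 the blood and immune list summed to 11.9 FPKM against 2.01 to 2.71 in the other Esrp1_KO libraries; the set was not high in that library.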

How the results depend on the processing

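The number of members moved with the limits of the rule, from 99 to 164 at a ratio over 4, 178 at a floor of 0.5 FPKM and 34 at a floor of 5 FPKM. It was 70 at a ratio over 16, 66 at 2 FPKM, 139 against the other 3 WT libraries alone, 90 with TMM scaling and 101 to 108 with another library left out. Filters were added after the data were seen: 80 members had at least 30 reads, and 66 shared no more than 20% of their stretches. Missing from the 80 are 9 members with under 30 reads and 10 whose reads could not be worked out. In the genotype comparison a mean of at least 5 FPKM lowered the counts from 1850 to 996 lower and from 1111 to 668 higher. It left 4290 genes to test in place of 8021, and the share called was 38.8% against 36.9%. In the fit with the replicate block 2030 genes were lower and 1376 higher. TMM factors gave 1601 lower and 1392 higher, and voom on reads 1657 lower and 974 higher. No setting called a member, but since their level rests on a single library this says nothing about stability. An unadjusted p below 0.05 was seen for 1 of 20 members with the replicate block and for 1 of 20 with a pseudocount of 0.1. The direction of members depended on the scale: 19 of 20 were lower with a pseudocount of 0.1, where Sord was higher, and 16 of 19 with voom, where Sord, Impdh2 and Selenos were higher. Depth limits the lowest genes, since an FPKM near 0.02 rests on a few reads.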
